A study of Homo sapiens with 6 samples.

Results

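The genes described here encode transcription factors that are made as membrane proteins of the endoplasmic reticulum (ER), together with the proteases that release them. They are 8 genes of the 64299 in the deposited count table, chosen by name: ATF6, ATF6B, CREB3, CREB3L1, CREB3L2, CREB3L4, MBTPS1 and MBTPS2. Each symbol matched 1 Ensembl identifier, and all 8 had reads and passed the filter on low counts, as did 16243 genes in all. The study sequenced poly(A) RNA from HEK293T cells, a transformed human embryonic kidney line, widely used because it takes up plasmids readily. In 3 libraries the cells carried a plasmid labelled ERbeta, and in 3 an empty vector, EV_Ctrl. Both groups received the same amount of plasmid with a lipid reagent, and neither group was left untransfected. The labels do not spell out ERbeta; from knowledge of the study it is an artificial protein rich in β-strands that is sent into the ER, and not the estrogen receptor. Its own level was not analysed here.

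ATF6 and its close relative ATF6B are basic leucine zipper (bZIP) factors held in the ER membrane, with a sensing part inside the ER and the DNA-binding part in the cytosol. When misfolded proteins build up, ATF6 moves to the Golgi, where the site-1 protease (encoded by MBTPS1) and then the site-2 protease (encoded by MBTPS2) cut it, and the freed part enters the nucleus and switches on ER chaperone genes. The CREB3 family is built and released in the same way, and its members are known above all for raising secretory capacity in particular cell types. Because this control lies in cutting and transport of protein, the mRNA levels measured here do not report how much active factor the cells held.

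The 6 libraries did not separate by group alone. On the first principal component of log2 CPM (counts per 1e6 counts, after TMM scaling), which held 58.9% of the variance, EV_Ctrl 1 and 3 lay at 46.1 and 42.7. EV_Ctrl 2 lay at -14.0, beside ERbeta 1 and 2 at -16.6 and -14.4, and ERbeta 3 lay at -43.8. The GC content of transcripts moved along with this order: the median deviation of the 25% of genes lowest in GC was 0.16, 0.11 and 0.39 on the log2 scale in ERbeta 1, 2 and 3, against -0.37, 0.11 and -0.32 in EV_Ctrl 1, 2 and 3. Total counts were 13149304 to 16531368 in ERbeta and 6833442 to 27101644 in EV_Ctrl. Kidney and neuronal genes typical of HEK293 cells were present, with NEFL at 132 to 160 CPM and LHX1 at 17.1 to 25.9 CPM, while PTPRC, CDH5 and ALB did not exceed 0.49 CPM. Results that rest on EV_Ctrl 2 are given with and without it, and fold changes are also given after a correction for GC content.

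No difference between ERbeta and EV_Ctrl in transcripts of the factors and proteases passed the test with all 6 libraries. In edgeR's quasi-likelihood test 0 of the 8 genes passed an adjusted p of 0.05, the smallest adjusted p being 0.505, and 0 of 16243 genes passed, or 0.0% of those tested. At an unadjusted p under 0.05 there were 0 of the 8 genes, against 12.4% of all tested genes. DESeq2, limma-voom and edgeR with no filter also called 0 of the 8 genes, against 0.438%, 0.00616% and 0.167% of the genes they tested. Of the 8 genes 4 had a positive and 4 a negative log2 fold change, with a median of 0.01 and a range of -0.14 to 0.26, and the median over all tested genes was -0.01. Among these genes 1 had groups that did not overlap, MBTPS1, which was lower in ERbeta, where 8.48% of all tested genes did so in that direction. In a lysate of many cells a change in a fraction of the cells and a smaller change in each cell cannot be told apart.

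ATF6, the main ER stress sensor of this class, lies on chromosome 1 (161766294 to 161964070, plus strand; GRCh38, GENCODE 29, as for all gene positions here). It was at 83.6, 81.1 and 103 CPM in ERbeta 1, 2 and 3, and at 76.6, 87.7 and 78.2 CPM in EV_Ctrl 1, 2 and 3. ERbeta 3 stood above the rest, while EV_Ctrl 2 was higher than ERbeta 1 and 2, so the groups overlapped. The log2 fold change was 0.14 ± 0.13 (SE; 95% interval -0.16 to 0.44), with an adjusted p of 0.63 in edgeR, and it was 0.03 without ERbeta 3. After GC correction it was -0.13 ± 0.09, so the sign of this small difference depended on that step.

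ATF6B, on chromosome 6 (32115264 to 32128253, minus strand), encodes the paralog that is cut in the same manner and is regarded as the weaker activator. It was at 132, 126 and 91.7 CPM in ERbeta 1, 2 and 3, and at 142, 119 and 118 CPM in EV_Ctrl 1, 2 and 3. The lowest value was that of ERbeta 3, the library in which ATF6 was highest, and the other ERbeta values lay inside the EV_Ctrl range. The log2 fold change was -0.12 ± 0.16 (95% interval -0.49 to 0.25, adjusted p 0.753 in edgeR). It was 0.03 without ERbeta 3 and -0.009 after GC correction. Within each library there were 0.633, 0.643 and 1.12 ATF6 reads for each ATF6B read in ERbeta 1, 2 and 3, against 0.538, 0.738 and 0.661 in EV_Ctrl 1, 2 and 3. Only in ERbeta 3 of these 6 libraries did ATF6 have more reads than ATF6B. ATF6 has a transcript of 41.3% GC and ATF6B one of 57.7% GC, and the part of GC in this ratio was not tested.

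**Figure D1:**
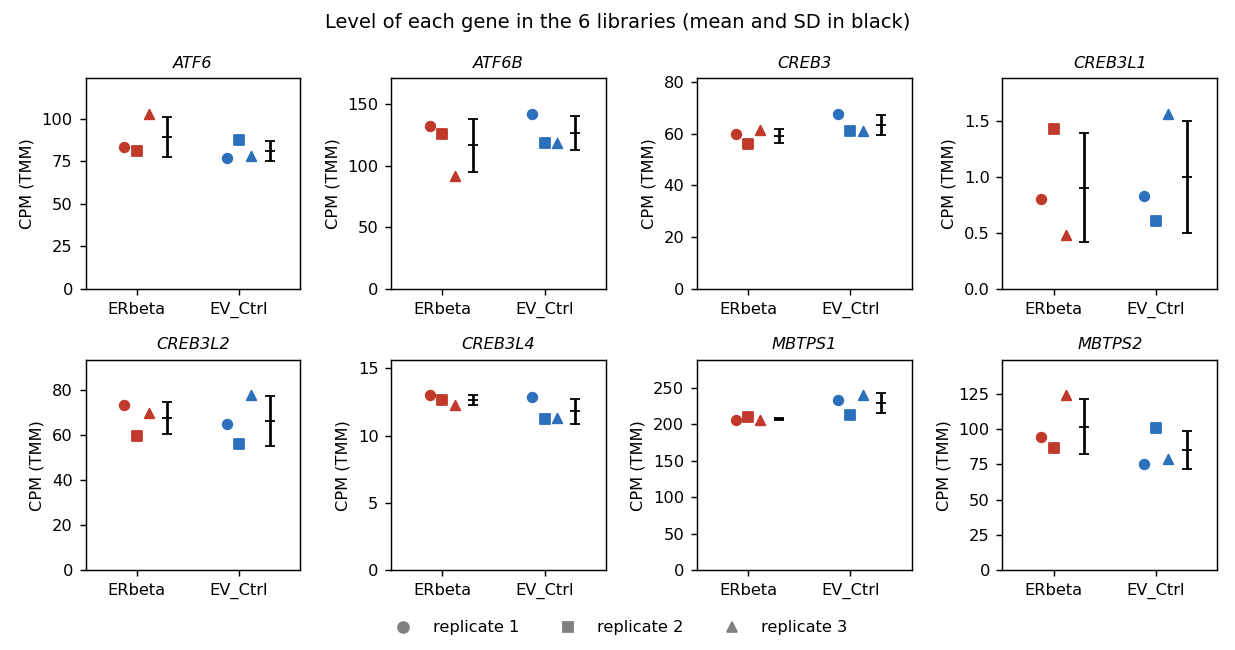
Level of each gene in CPM after TMM scaling (vertical axes, starting at 0) in the 3 ERbeta and 3 EV_Ctrl libraries; symbols mark the replicate number, and the black bars give mean and SD. The groups overlap for every gene drawn except MBTPS1, for which ERbeta libraries lie at 206 to 209 CPM and EV_Ctrl libraries at 213 to 240 CPM.

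Of the CREB3 family 3 genes were readily measured, and CREB3L1 was at trace level. CREB3, also called Luman, has been linked to Golgi stress and lies on chromosome 9 (35732335 to 35737004, plus strand). It was at 59.7, 56.1 and 61.4 CPM in ERbeta 1, 2 and 3, and at 67.7, 61.1 and 61.1 CPM in EV_Ctrl 1, 2 and 3. Its log2 fold change was -0.10 ± 0.10 (95% interval -0.34 to 0.14, adjusted p 0.674), and ERbeta 3 lay between the EV_Ctrl values. It was 0.02 after GC correction.

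CREB3L2 (BBF2H7), which in mouse cartilage drives the vesicle coat gene Sec23a, lies on chromosome 7 (137874979 to 138002067, minus strand). Its levels were 73.3, 59.5 and 69.5 CPM in ERbeta 1, 2 and 3, and 64.7, 55.7 and 77.6 CPM in EV_Ctrl 1, 2 and 3. Both the lowest and the highest value came from EV_Ctrl. The log2 fold change was 0.03 ± 0.15 (95% interval -0.32 to 0.38, adjusted p 0.933 in edgeR), and 0.06 after GC correction.

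CREB3L4, a member first known from prostate and testis, lies on chromosome 1 (153967534 to 153974363, plus strand) and kept a positive sign in all 17 alternatives tried. It was at 13.03, 12.6 and 12.3 CPM in ERbeta 1, 2 and 3, and at 12.9, 11.2 and 11.3 CPM in EV_Ctrl 1, 2 and 3. EV_Ctrl 1 lay among the ERbeta libraries. The log2 fold change of CREB3L4 was 0.11 ± 0.12 (95% interval -0.18 to 0.39, adjusted p 0.702 in edgeR), and 0.20 after GC correction. Set against CREB3 in the same library, which removes any scaling between libraries, it had 0.218, 0.225 and 0.2 reads per CREB3 read in ERbeta 1, 2 and 3, against 0.19, 0.184 and 0.185 in EV_Ctrl 1, 2 and 3. All 3 ERbeta values of this ratio lay above all 3 EV_Ctrl values; as a ratio picked after its values were seen it carries no test.

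CREB3L1 (OASIS), an activator of collagen genes in bone-forming cells of the mouse, lies on chromosome 11 (46277661 to 46321422, plus strand). It had 13, 22 and 6 reads in ERbeta 1, 2 and 3, and 6, 16 and 18 reads in EV_Ctrl 1, 2 and 3, or 0.48 to 1.43 CPM against 0.6 to 1.57 CPM. At this depth its log2 fold change of -0.01 ± 0.52 spans a 95% interval of -1.22 to 1.19, so a change of up to about that size was not detectable. CREB3L3, the liver and gut member of the family and not among the 8 genes, was not tested, being at 0 to 0.065 CPM.

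The proteases gave the smallest p-values of the 8 genes, in opposite directions. MBTPS1, on chromosome 16 (84053761 to 84116906, minus strand), encodes the subtilisin-like site-1 protease, which makes the first cut on the lumenal side. It was at 207, 209 and 206 CPM in ERbeta 1, 2 and 3, and at 233, 213 and 240 CPM in EV_Ctrl 1, 2 and 3. The ERbeta libraries were almost equal and lay just below EV_Ctrl 2. The log2 fold change was -0.14 ± 0.09 (95% interval -0.36 to 0.07, adjusted p 0.505 in edgeR), and -0.07 ± 0.08 after GC correction. It stayed negative in all 17 alternatives, with a range of -0.24 to -0.04.

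MBTPS2, on chromosome X (21839636 to 21885424, plus strand), encodes the site-2 protease, a zinc metalloprotease that makes the second cut within the membrane. It was at 94.3, 86.8 and 124 CPM in ERbeta 1, 2 and 3, and at 75.4, 101 and 79.1 CPM in EV_Ctrl 1, 2 and 3. EV_Ctrl 2 lay above ERbeta 1 and 2, so the groups overlapped. The log2 fold change was 0.26 ± 0.17 (95% interval -0.15 to 0.66, adjusted p 0.524). Without ERbeta 3 it was 0.09, with an adjusted p of 0.873. Without EV_Ctrl 2 it was 0.40 ± 0.16, with an adjusted p of 0.137 in edgeR. That fit called 14.3% of all tested genes, 13.5% higher and 0.775% lower.

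MBTPS2 has the transcript lowest in GC of the 8 genes, at 35.9%. After GC correction its log2 fold change was -0.38 ± 0.12 with an adjusted p of 0.454. With GC correction and without EV_Ctrl 2 it was -0.48 ± 0.11 with an adjusted p of 0.0103, a fall that was the only call on any of the 8 genes under the alternatives tried, in a fit that called 3.87% of genes lower and 10.3% in all. The sign of the MBTPS2 difference therefore turned with the correction, and neither direction passed with all 6 libraries. The count of MBTPS2 reads for each MBTPS1 read was 0.457, 0.415 and 0.602 in ERbeta 1, 2 and 3, against 0.323, 0.471 and 0.329 in EV_Ctrl 1, 2 and 3. EV_Ctrl 2 again lay within the ERbeta range, and EV_Ctrl 1 and 3 lay below it.

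**Figure D2:**
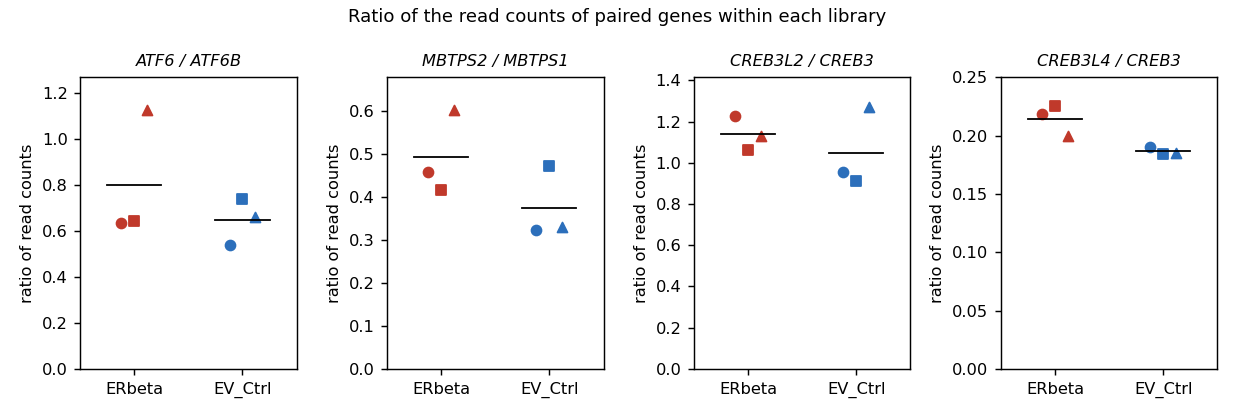
Ratio of read counts of gene pairs within each library (vertical axes, starting at 0), with the group mean as a black line; symbols mark the replicate number as in the plot of levels. ERbeta 3 has the highest ATF6 to ATF6B ratio (1.12) and the highest MBTPS2 to MBTPS1 ratio (0.602).

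The fold changes of the 8 genes followed transcript GC content only in part. The genes under 45% GC, MBTPS2 and ATF6, had the most positive log2 fold changes, 0.26 and 0.14, while ATF6B at 57.7% and CREB3 at 56.6% GC had -0.12 and -0.10. CREB3L2 at 48.1% GC and CREB3L4 at 53.4% GC lay between, at 0.03 and 0.11, and MBTPS1 at 50.9% GC had -0.14. CREB3L1, the gene highest in GC at 61.1%, had -0.01. Over all tested genes the 25% of genes below 42.2% GC had a median of 0.36, and the 25% above 56.4% GC a median of -0.15. MBTPS2 and ATF6 thus lay below the median of the low-GC genes to which they belong. The GC trend and the group cannot be fully told apart here, because the only control library with an ERbeta-like GC trend was EV_Ctrl 2.

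**Figure D3:**
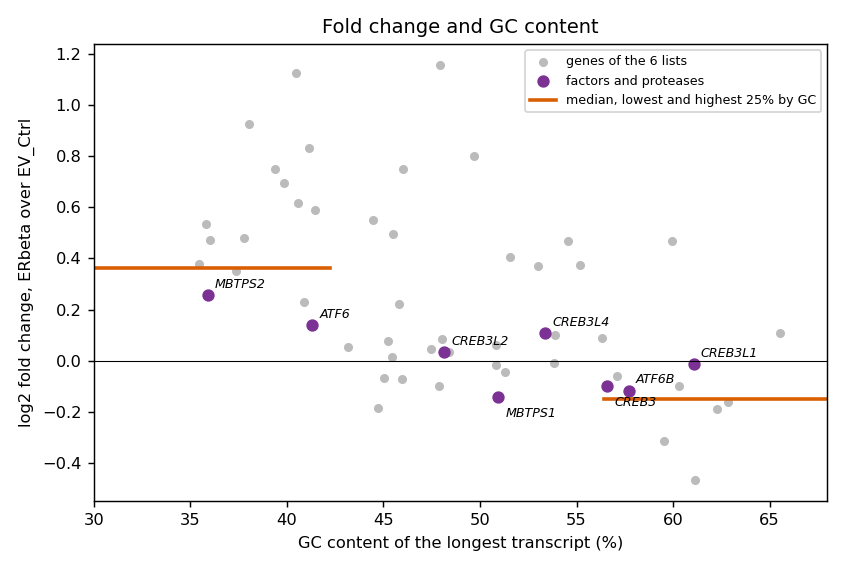
Log2 fold change of ERbeta over EV_Ctrl (vertical axis) against the GC content of the longest transcript in percent (horizontal axis) for the 8 genes and the tested genes of the lists; orange lines give the medians of the 25% of all tested genes lowest and highest in GC. MBTPS2 and ATF6 lie below the line of the low-GC genes, whose median is 0.36.

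Levels can be compared between genes only per length, and per kilobase of exon the 8 transcripts ranked as follows. ATF6B, at 25.3 to 39.2 CPM per kilobase over the 6 libraries, and CREB3, at 29.5 to 35.6, were highest and did not differ beyond their spread. MBTPS1 followed at 20.1 to 23.5 CPM per kilobase. ATF6, at 9.71 to 13.05, and MBTPS2, at 8.44 to 13.9, were alike within their spread, and the top of CREB3L2, at 6.34 to 8.83 CPM per kilobase, reached into the range of MBTPS2 but not of ATF6. CREB3L4 was at 3.87 to 4.49 and CREB3L1 at 0.12 to 0.39 CPM per kilobase. With the length of the longest transcript in place of all annotated exons, MBTPS1 was at 47.5 to 55.4 CPM per kilobase and overlapped ATF6B at 34.9 to 54.3, and lay above CREB3 at 30.6 to 37.0. On that length MBTPS2 at 16.9 to 27.8 lay above ATF6 at 10.2 to 13.7, and CREB3L2 at 7.51 to 10.5 reached into the range of ATF6 but not of MBTPS2, so these places in the order depend on which exons are used in these cells.

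Some exons are shared with neighbours. YY2, a gene without introns inside MBTPS2 on the same strand, covers 12.2% of the MBTPS2 exon length, and its own count was 19 to 97 reads, against 544 to 2667 for MBTPS2. On the same strand AL662884.2, annotated as a processed transcript, covers 8.0% of ATF6B and TNXB 2.0%. On the opposite strand SLC39A1 and JTB cover 9.6% and 3.3% of CREB3L4, and GBA2 and TLN1 cover 7.3% and 3.2% of CREB3. The strand setting of the counting is not given in the sources used here, so reads in these stretches are uncertain.

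Genes linked to ATF6 as targets had higher values in ERbeta. The list holds 17 genes and was drawn up with results on several of them known, so its direction is not independent evidence. All 17 had a positive log2 fold change, with a median of 0.47, against 7841 positive genes of 16243 and a median of -0.01 overall. Without overlap between groups 14 of 17 were higher, against 10.2% of all tested genes, and 14 had an unadjusted p under 0.05 with higher values, against 9.54%. With all 6 libraries, the filter on low counts and no GC correction, none of the 17 passed over all genes in edgeR. With no filter HSPA5, HERPUD1 and DDIT3 rose in edgeR, with adjusted p-values of 0.00554, 0.00578 and 0.0359. DESeq2 called these and also XBP1 and DNAJB11 higher, with adjusted p-values of 1.96e-09 for HSPA5 to 0.0403 for DNAJB11. Without EV_Ctrl 2, 9 of 17 rose, against 13.5% of all tested genes, and with GC correction as well 9 of 17 rose, against 6.41%. The genes were not all the same in these edgeR fits. XBP1, among others, rose only in the first, and was at 0.19 (adjusted p 0.359) in the second.

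HSPA5, which encodes BiP, the ER chaperone that holds ATF6 back in the ER, was at 870, 877 and 888 CPM in ERbeta 1, 2 and 3, and at 530, 536 and 501 CPM in EV_Ctrl 1, 2 and 3. The ERbeta libraries were all far above the EV_Ctrl libraries, EV_Ctrl 2 included. The log2 fold change of 0.75 ± 0.08 had an adjusted p of 0.13, and after GC correction HSPA5 rose by 0.73 ± 0.09, with an adjusted p of 0.0482. HERPUD1, which assists the HRD1 ligase in ER-associated degradation, was at 83.1, 88.0 and 57.1 CPM in ERbeta 1, 2 and 3, and at 38.2, 29.8 and 34.7 CPM in EV_Ctrl 1, 2 and 3. Its groups were well apart, although ERbeta 3 was the lowest of its group.

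DDIT3 (CHOP), a stress factor that the PERK branch also controls, and XBP1, the factor whose mRNA IRE1 splices, were with HSPA5 and HERPUD1 the targets of smallest p. DDIT3 was at 51.5, 48.5 and 43.8 CPM in ERbeta 1, 2 and 3, and at 28.96, 28.2 and 25.4 CPM in EV_Ctrl 1, 2 and 3. XBP1 was at 129, 138 and 131 CPM in ERbeta, against 91.3, 84.3 and 89.7 CPM in EV_Ctrl. Neither gene's groups overlapped, and the log2 fold changes were 0.80 ± 0.12 and 0.59 ± 0.09, or 0.85 and 0.32 after GC correction. After that correction DDIT3 and HSPA5 were 2 of the 9 genes that rose, 0.0559% of those tested. Chosen after their values were seen, CALR, SDF2L1 and SYVN1 were the targets whose groups overlapped, at 0.10 ± 0.09, 0.11 ± 0.16 and 0.09 ± 0.22. DNAJB11, likewise, was at 0.48 ± 0.10 and at -0.05 after GC correction, the one sign in the list that turned there.

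**Figure D4:**
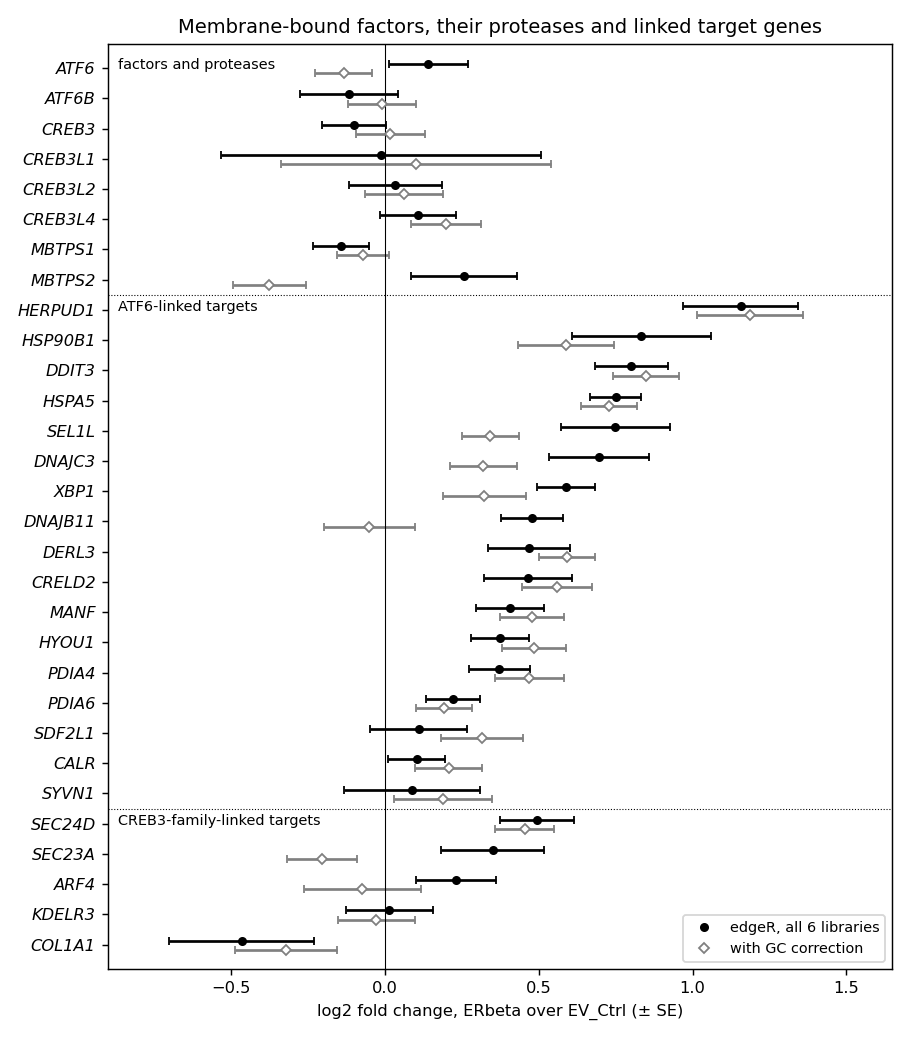
Log2 fold change of ERbeta over EV_Ctrl with its SE (horizontal axis) for the 8 genes, the ATF6-linked targets and the CREB3-family-linked targets, from edgeR with all 6 libraries (filled) and with GC correction (open). The 8 genes lie between -0.14 and 0.26 without the correction, while the 17 ATF6-linked targets are all positive, with HERPUD1 highest at 1.16.

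Some promoters of these targets carry the letters that ATF6 is known to recognise together with the CCAAT-binding factor NF-Y. The ER stress response element (ERSE) was searched as CCAAT and CCACG with 9 bases between them, and its compact form ERSE-II as ATTGG and CCACG with 1 base between them, on both strands, in RefSeq promoter windows of 300 bases (250 before and 50 after the gene start, GRCh38.p14). ERSE was found in 6 of the 16 ATF6-linked targets with a window, against 0.0769% of 35116 promoters, and ERSE-II in 3 of 16, against 0.0541%. ERSE and ERSE-II matches do not overlap each other in these windows, and these elements were defined on some of these very genes. Of 26 windows of the other lists 0 held ERSE and 1 held ERSE-II, that of NUCB1. DERL3 had no window in the table. TGACGTGG (UPRE), also searched, was in 1 of the 16 ATF6-linked windows and 3 of the 26 others, against 0.729% of all promoters. None of the 8 windows of the factors and proteases held ERSE, ERSE-II or UPRE. CREB3L2 alone of them held the cyclic AMP response element TGACGTCA, which 1.85% of promoters hold. The matched ERSE and ERSE-II sites follow, so that the shared letters, in capitals, can be compared between genes. Each is written 5′ to 3′ on the strand that holds the element.
HSPA5 ERSE, chr9:125241391-125241409, minus strand: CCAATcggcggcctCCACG
HSP90B1 first ERSE, chr12:103930216-103930234, plus strand: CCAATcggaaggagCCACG
HSP90B1 second ERSE, chr12:103930321-103930339, minus strand: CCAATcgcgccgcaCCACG
CALR ERSE, chr19:12938384-12938402, minus strand: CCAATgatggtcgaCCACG
PDIA6 ERSE, chr2:10812853-10812871, minus strand: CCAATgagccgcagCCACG
CRELD2 ERSE, chr22:49918554-49918572, minus strand: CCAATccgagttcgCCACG
XBP1 ERSE, chr22:28800603-28800621, minus strand: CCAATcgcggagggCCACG
HERPUD1 ERSE-II, chr16:56932025-56932035, plus strand: ATTGGgCCACG
HYOU1 ERSE-II, chr11:119057380-119057390, plus strand: ATTGGaCCACG
SDF2L1 ERSE-II, chr22:21642114-21642124, minus strand: ATTGGtCCACG
NUCB1 ERSE-II, chr19:48900243-48900253, minus strand: ATTGGtCCACG

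HYOU1 held a second copy of the same ERSE-II letters. Genes with an exact match were not all among the larger differences: CALR, SDF2L1 and NUCB1 had matches and overlapping groups, whereas DDIT3, at 0.80 ± 0.12, had none in its window. The full windows of HSPA5 and ATF6 are given to set the promoter of the classic ATF6 target beside that of the factor. With all 6 libraries, the filter on low counts and no GC correction, neither gene passed in edgeR (adjusted p 0.13 and 0.63). Copies of an element that differ from the searched letters were not looked for in any window. In the HSPA5 window (chr9:125241294-125241593, minus strand) the capitals mark the exact ERSE match, which begins 66 bases before the start.
HSPA5: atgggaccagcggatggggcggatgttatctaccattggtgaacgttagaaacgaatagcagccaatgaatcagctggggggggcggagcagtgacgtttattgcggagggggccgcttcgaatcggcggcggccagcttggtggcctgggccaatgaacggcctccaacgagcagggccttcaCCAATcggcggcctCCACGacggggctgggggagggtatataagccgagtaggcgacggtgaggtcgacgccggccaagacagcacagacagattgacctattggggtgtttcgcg
The ATF6 window (chr1:161766070-161766369, plus strand) has no capitals, since neither element was found in it.
ATF6: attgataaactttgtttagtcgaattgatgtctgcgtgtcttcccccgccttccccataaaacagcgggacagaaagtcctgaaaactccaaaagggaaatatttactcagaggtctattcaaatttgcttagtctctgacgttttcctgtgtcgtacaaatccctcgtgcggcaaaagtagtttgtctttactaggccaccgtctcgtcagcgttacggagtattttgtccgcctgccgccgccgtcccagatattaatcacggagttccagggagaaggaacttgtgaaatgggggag

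Targets linked mainly to XBP1s, the spliced form of XBP1, were mixed. A gene can answer to several branches, so this list and that of ATF6 do not separate the branches. Of 8 genes 6 were positive with a median of 0.31, and 4 had groups that did not overlap, all higher in ERbeta, where 48.3% of all tested genes were positive and 10.2% were higher without overlap. DNAJB9, a co-chaperone of BiP, was at 33.2, 30.7 and 37.8 CPM in ERbeta 1, 2 and 3, and at 11.5, 20.9 and 13.3 CPM in EV_Ctrl 1, 2 and 3. Its log2 fold change was 1.13 ± 0.22 (adjusted p 0.333) and 0.82 after GC correction. DNAJB9 rose in edgeR with no filter (adjusted p 0.0239) and in DESeq2 (adjusted p 0.00361), which called 0.167% and 0.438% of genes. The translocation factors TRAM1 and SSR1 and the signal peptidase subunit SPCS3 were at 0.92 ± 0.24, 0.61 ± 0.21 and 0.54 ± 0.21, and after GC correction at 0.44, 0.31 and -0.11. The median of the list was then 0.10. Without EV_Ctrl 2, DNAJB9, TRAM1 and SSR1 rose in edgeR, 3 of the 8 genes, against 13.5% of all tested genes. With GC correction as well the same 3 of 8 rose, against 6.41%.

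Of 5 genes linked to the CREB3 family 4 were positive, with a median of 0.23 that was -0.07 after GC correction. SEC24D, a cargo-binding subunit of the COPII coat, was at 43.6, 44.1 and 52.4 CPM in ERbeta 1, 2 and 3, and at 31.2, 34.5 and 33.6 CPM in EV_Ctrl 1, 2 and 3. Of the 5 genes this 1 had groups that did not overlap, against 10.2% of all tested genes in that direction. Its log2 fold change was 0.49 ± 0.12 (adjusted p 0.397) and 0.45 after GC correction. In edgeR without EV_Ctrl 2 SEC24D rose by 0.53 (adjusted p 0.0270), and with GC correction as well by 0.47 (adjusted p 0.0192). Those fits called 13.5% and 6.41% of genes higher. SEC23A, its partner in the coat, was at 0.35 ± 0.17 and at -0.20 after GC correction, and ARF4, a small GTPase of the Golgi, at 0.23 ± 0.13 and -0.07. COL1A1, the collagen gene linked to CREB3L1 in mouse bone, was at 22.2, 19.5 and 13.5 CPM in ERbeta 1, 2 and 3, and at 26.7, 19.2 and 31.0 CPM in EV_Ctrl 1, 2 and 3. EV_Ctrl 2 lay below ERbeta 1 and 2, and the log2 fold change of -0.47 ± 0.24 had an adjusted p of 0.421.

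Partners that retain ATF6, reduce its disulfides or bind DNA beside it showed no common direction, with 4 of 8 positive and a median of -0.003. NFYB, a subunit of the CCAAT-binding factor NF-Y, was at 49.96, 50.4 and 57.6 CPM in ERbeta 1, 2 and 3, and at 31.9, 49.2 and 32.1 CPM in EV_Ctrl 1, 2 and 3. EV_Ctrl 2 nearly reached the ERbeta libraries. Its log2 fold change was 0.47 ± 0.19 (adjusted p 0.397 in edgeR), and -0.11 after GC correction, with a transcript of 36.0% GC. Without EV_Ctrl 2 NFYB rose by 0.72 (adjusted p 0.00324), in a fit that called 13.5% of genes higher. NFYA, the DNA-contacting subunit, was at -0.07 ± 0.12. WFS1, the wolframin gene, whose product restrains ATF6 by promoting its degradation, was at 30.2, 31.2 and 24.8 CPM in ERbeta 1, 2 and 3, and at 36.3, 33.9 and 37.2 CPM in EV_Ctrl 1, 2 and 3. All its ERbeta values were lower, where 8.48% of all tested genes were lower without overlap. The log2 fold change of WFS1 was -0.31 ± 0.13 (adjusted p 0.397 in edgeR), and -0.19 after GC correction. NUCB1, which hinders the first cut of ATF6, was at -0.10 ± 0.11.

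Other genes tied to the site-1 protease, as substrates, a cofactor or regulators of a substrate, were close to level except INSIG2. These sterol and lysosome genes had 2 of 7 positive and a median of -0.07. Of them 0 had groups apart, against 18.7% of all tested genes in either direction, and with so few genes that count is near the share. SREBF2, a sterol-responsive factor released by the same pair of proteases, was at -0.06 ± 0.09, and its escort SCAP at -0.19 ± 0.12. SPRING1, a cofactor of the site-1 protease, was at -0.10 ± 0.12. INSIG2, which retains SCAP in the ER, was at 28.9, 32.4 and 36.8 CPM in ERbeta 1, 2 and 3, and at 20.0, 35.4 and 19.2 CPM in EV_Ctrl 1, 2 and 3. EV_Ctrl 2 again sat with the ERbeta libraries. INSIG2 was at 0.38 ± 0.24 with an adjusted p of 0.508 in edgeR, and at -0.20 after GC correction. Without EV_Ctrl 2 INSIG2 rose by 0.75 (adjusted p 0.00545), in a fit that called 13.5% of genes higher.

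Among the other ER stress sensors the kinases differed in their values. EIF2AK3, which encodes PERK, was at 62.4, 61.2 and 66.8 CPM in ERbeta 1, 2 and 3, and at 40.6, 46.3 and 43.0 CPM in EV_Ctrl 1, 2 and 3. Its groups did not overlap, where 10.2% of all tested genes were higher without overlap. The log2 fold change of EIF2AK3 was 0.55 ± 0.11 (adjusted p 0.326 in edgeR), and 0.47 after GC correction. DESeq2 with all 6 libraries called EIF2AK3 higher (adjusted p 0.0173), among 0.438% of genes in either direction. In edgeR without EV_Ctrl 2 it rose by 0.61 (adjusted p 0.00705), and with GC correction as well by 0.49 (adjusted p 0.00934). Those fits called 13.5% and 6.41% of genes higher. ERN1, which encodes IRE1α, was at 28.4, 19.3 and 26.6 CPM in ERbeta 1, 2 and 3, and at 23.7, 19.8 and 32.0 CPM in EV_Ctrl 1, 2 and 3, with a log2 fold change of -0.02 ± 0.22. The ATF6 interval of -0.16 to 0.44 lies below the EIF2AK3 estimate, but the difference between these genes was not tested.

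By the smallest root mean square difference of centred log2 CPM over the 6 libraries, among genes averaging at least 3 in log2 CPM, the pattern most like that of ATF6 was that of RNF14, at 0.019. For MBTPS2 it was RNF19A, at 0.013, for MBTPS1 CYP4X1, at 0.020, and for ATF6B HEXD, at 0.027. CREB3 was nearest to DHRS3, at 0.021, CREB3L2 to SASH1, at 0.033, and CREB3L4 to SYNGR3, at 0.018. With so many candidates and 6 libraries such close matches are common, and they say nothing of shared control. CREB3L1 had no match closer than 0.26, that of MTCO3P12.

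The authors' deposited table, made with DESeq2, gives log2 fold changes of 0.12 for ATF6, -0.11 for ATF6B, -0.10 for CREB3, 0.02 for CREB3L2 and 0.11 for CREB3L4. In the authors' deposited table MBTPS1 is at -0.14 and MBTPS2 at 0.22, with adjusted p-values of 0.323 and 0.236, the smallest it lists for these genes. For HSPA5 the authors' deposited table gives 0.72 with an adjusted p of 3.59e-21. DDIT3 and XBP1, called by DESeq2 here, have adjusted p-values of 0.0943 and 0.0798 in the authors' deposited table. Fold changes differ too. On the log2 scale DDIT3, XBP1, DNAJB9 and TRAM1 are at 0.47, 0.44, 0.77 and 0.65 in the authors' deposited table. The edgeR values here are 0.80, 0.59, 1.13 and 0.92. HERPUD1, SEC24D, EIF2AK3 and DNAJB9 have 7.55e-12, 0.00022, 0.00022 and 0.00716 in the authors' deposited table. TRAM1, SSR1 and SPCS3 have 0.0202, 0.0442 and 0.0451 in the authors' deposited table. What made the 2 sets of values differ was not tested.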

How the data were processed

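RNA was measured by poly(A) RNA sequencing with a stranded kit, per the labels' protocols. TopHat2, featureCounts and DESeq2 with hg38 were used, per the submitters' processing notes; their versions, the annotation and the strand setting are not given in the sources used. The deposited table holds the authors' raw counts per gene. The authors' second deposited table holds, per the file headers, a mean signal, a log2 fold change, its SE and statistic (scores) and p-values; none of it entered a test.

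Genes were filtered with filterByExpr (minimum count 10, total 15), scaled by TMM and tested with edgeR 4.0.16 (quasi-likelihood, group only) in R 4.3.3, with Benjamini-Hochberg adjustment over all 16243 genes and a threshold of 0.05. Standard errors came from the F statistic. CPM is per 1e6 TMM-scaled counts. No pair of replicates agreed within counting noise (chi-square per degree of freedom 4.74 to 38.7). Whether replicates were separate cultures is not in the labels, so the p-values reflect only variation among the 6 libraries, part of which may be technical.

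For the GC correction, log2 CPM was regressed per library on the GC share of each gene's longest GENCODE 29 transcript by loess (span 0.5), and the fitted trend became an offset. Other alternatives were DESeq2 1.42.0 size factors and test, library size only, no filter, at least 1 CPM in all libraries, limma-voom (limma 3.58.1), a replicate block, a threshold of 0.01 and leaving out libraries. Members, lists and alternatives were chosen with earlier results of these data known. The text names all members, up to 4 genes per list with the smallest p, HSPA5, HERPUD1 and XBP1, and of the 2 genes nearest in pattern to each member the nearer; CALR, SDF2L1, SYVN1 and DNAJB11 were added after their values were seen. Scripts were tested on simulated data. Promoter sequences are from RefSeq (GRCh38.p14).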

Additional observations from a re-analysis of the deposited data

How the results depend on the processing

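Counts of calls depended on 1 control library and on the tool. With all 6 libraries edgeR called 0 genes (2018 at an unadjusted p under 0.05). It called 51 with no filter on low counts, DESeq2 71, limma-voom 1 and the GC correction 9. Leaving out 1 library gave 0 to 2324 calls, the 2324 without EV_Ctrl 2, and GC correction without EV_Ctrl 2 gave 1657. Of the 8 factor and protease genes 1 was called, MBTPS2 lower, in that last setting, and 0 in the others. Depth limits CREB3L1, with 6 to 22 reads.

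Signs turned mostly with GC correction, at an adjusted p above 0.05 except for MBTPS2 as above; the cause was not tested. With GC correction ATF6 was at -0.13, CREB3 at 0.017, CREB3L1 at 0.10, MBTPS2 at -0.38, SPCS3 at -0.11, SEC23A at -0.20, ARF4 at -0.074, NFYB at -0.11, NUCB1 at 0.0405, INSIG2 at -0.20, SREBF2 at 0.056 and ERN1 at 0.057. With GC correction and without EV_Ctrl 2 ATF6 was at -0.18, CREB3 at 0.033, CREB3L2 at -0.042, MBTPS2 at -0.48, SPCS3 at -0.25, SEC23A at -0.30, ARF4 at -0.24, NFYB at -0.14, NUCB1 at 0.039, INSIG2 at -0.15 and SREBF2 at 0.058. With the replicate block and GC correction ATF6 was at -0.13, CREB3 at 0.011, CREB3L1 at 0.17, MBTPS2 at -0.37, SPCS3 at -0.11, SEC23A at -0.20, ARF4 at -0.076, NFYB at -0.11, NUCB1 at 0.0403, INSIG2 at -0.19, SREBF2 at 0.054 and ERN1 at 0.048. Without EV_Ctrl replicates 1 and 3, with the spread of the single control left taken from ERbeta, CREB3L1 was at 0.61, INSIG2 at -0.11, SPRING1 at 0.013, SREBF2 at 0.018 and ERN1 at 0.32. With library size only CREB3L2 was at -0.069, and with limma-voom ERN1 at 0.0074. Leaving out 1 library gave -0.23 to 0.030 for ATF6B, -0.50 to 0.47 for CREB3L1, -0.073 to 0.17 for CREB3L2, -0.17 to 0.0016 for NFYA and -0.17 to 0.20 for ERN1.

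No pairing by replicate number was seen: deviations from the group means of same-numbered libraries correlated at 0.23, -0.11 and -0.14. Those of differently numbered libraries ran from -0.35 to 0.34. So few libraries cannot exclude a shared batch. With the replicate block 0 genes were called, and CREB3L1, at 0.022, was the gene named here whose sign turned. MBTPS1, CREB3L4, HSPA5, HERPUD1, DDIT3 and XBP1 kept their sign in all 17 alternatives.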
